A study of Mus musculus with 6 samples.

Results

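Ribosome biogenesis and nucleolar factors are the proteins that make, modify, cut and fold ribosomal RNA and assemble it with ribosomal proteins. A list of 51 such genes was followed in RNA-seq data of mouse pre-B cells, and 50 of them were found by symbol in the annotation and counted. Noc2l was not matched and is not analysed here. The 50 genes comprise 19 factors of the small ribosomal subunit, 18 of the large subunit, 7 core proteins of small nucleolar ribonucleoprotein particles (snoRNPs) and 6 other nucleolar proteins. All 50 passed the filter on low counts, as did 16683 of the 37991 genes counted in the series.

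A ribosome is built in the nucleolus, where RNA polymerase I copies the ribosomal DNA into a long precursor. Box C/D snoRNPs methylate this precursor and box H/ACA snoRNPs convert uridines in it to pseudouridine, while separate sets of helicases, scaffold proteins and nucleases release the small and the large subunit. Genes of this pathway are classical targets of MYC, a transcription factor that binds DNA as a dimer with MAX at the E-box motif.

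The cells were sorted from bone marrow as pre-B cells. The labels give high B220 with low IgM and IgD as the gate at all stages, whereas the study's methods give it for pro-B and pre-B cells of the wild-type and premalignant mice and describe the malignant cells as positive for B220 and negative for IgM and IgD. Wild-type mice and premalignant Eμ-Myc mice were 4 to 6 weeks old, and malignant Eμ-Myc mice were killed once lymphoma had appeared, at 10 to 20 weeks. All mice were on a C57BL/6 background, and the Eμ-Myc mice were heterozygous for a transgene in which the immunoglobulin heavy-chain enhancer drives Myc in the B lineage. Female mice gave the wild-type and premalignant cells, and mice of both sexes the malignant cells. The malignant group may therefore differ from the other stages in age, sex and gate as well as in disease, and these cannot be told apart. The series has 2 libraries of polyadenylated RNA for each stage, described as biological replicates from individual animals.

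Total counts lay between 30031100 and 53453055 a library, and the rarest of the 50 genes still had 518 counts in the library where it was lowest. Levels are given as counts per 1000000 counted reads (CPM) after TMM scaling, a correction for the composition of each library. Myc itself, the gene that the transgene carries, stood at 33.8 and 41.4 CPM in wild type, 1164 and 1155 in premalignant and 1732 and 1578 in malignant cells, and reads of the transgene and of the endogenous gene cannot be told apart in these counts. The B-lineage genes Cd79a and Pax5 were present in every library, but the summed level of 12 pre-B and pro-B markers was highest in wild type. It was 7546 and 8259 CPM there, 3547 and 3486 in premalignant and 3215 and 2903 in malignant cells. Vpreb1, a part of the surrogate light chain that defines the pre-B receptor, fell from 114 and 131 CPM in wild type to 9.74 and 4.88 in premalignant cells, and was at 0.146 and 4.05 in malignant cells. The summed level of 9 myeloid markers was 1045 and 2325 CPM in wild type, 315 and 341 in premalignant and 78.7 and 148 in malignant cells. The 5 erythroid markers summed to 293 and 1080, 60.0 and 138, and 52.3 and 57.5 CPM in the same order, and the 4 markers of plasmacytoid dendritic cells to 305 and 198, 64.1 and 31.1, and 8.03 and 39.8 CPM. The summed levels of the T-cell, NK-cell and plasma-cell markers were also highest in wild type, although single T-cell genes were not, and no gene of these lists was at 0 in both libraries of a stage. In such bulk samples fewer cells of a type and less RNA per cell cannot be told apart. The part of these other cells, or of a difference in B-cell stage, in the changes below was not tested.

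All 50 genes rose in premalignant compared with wild-type cells, and all 50 also exceeded wild type in malignant cells. A gene was called where edgeR's quasi-likelihood test gave a Benjamini-Hochberg adjusted p of at most 0.1, over all genes tested, and the log2 fold change was at least 0.5 in size. By this rule 19% of all genes were called higher in the premalignant stage and 20.3% lower, against 50 of 50 and 0 of 50 of the biogenesis genes. For malignant against wild-type cells the background was 24.9% higher and 24.3% lower, again against 50 and 0 of the 50. At an unadjusted p under 0.05, 0 of the 50 were lower in either comparison, against 22.6% and 25.4% of all genes. DESeq2 also called 50 higher and 0 lower in each comparison, where it called 19.5% of all genes higher and 19.2% lower in premalignant and 24.0% higher and 23.6% lower in malignant cells. For all of the 50, both premalignant and both malignant libraries lay above both wild-type libraries, compared with 36.2% and 35.3% of all genes. The median log2 fold change over the 50 genes was 1.80 in premalignant cells, a 3.48-fold rise, and ran from 0.68 to 2.84. In malignant cells the median was 2.10, and the range was 0.88 to 3.68. Over all genes tested the medians were −0.08 and −0.02. The median of the 50 lay above 96.6% of all tested genes in the first comparison and above 95.0% in the second. It was 1.71 between the replicate 1 libraries and 1.87 between the replicate 2 libraries for premalignant cells.

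With libraries scaled to total counts instead of by TMM, the median of all genes moved to −0.29 and −0.31, and the calls split into 2247 higher and 4438 lower for premalignant cells in place of 3169 and 3394. For malignant cells the split was 2957 and 5367 in place of 4153 and 4059. All 50 biogenesis genes stayed above 0 in both comparisons under this scaling. Their median lay 1.88 and 2.11 above that of all genes. A change of scaling shifts all genes nearly alike, so this gap could hardly change and is no check of the result. The 50 genes together held 0.440% and 0.428% of all counts in the wild-type libraries, 1.36% and 1.39% in the premalignant and 1.69% and 1.51% in the malignant libraries.

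**Figure D1:**
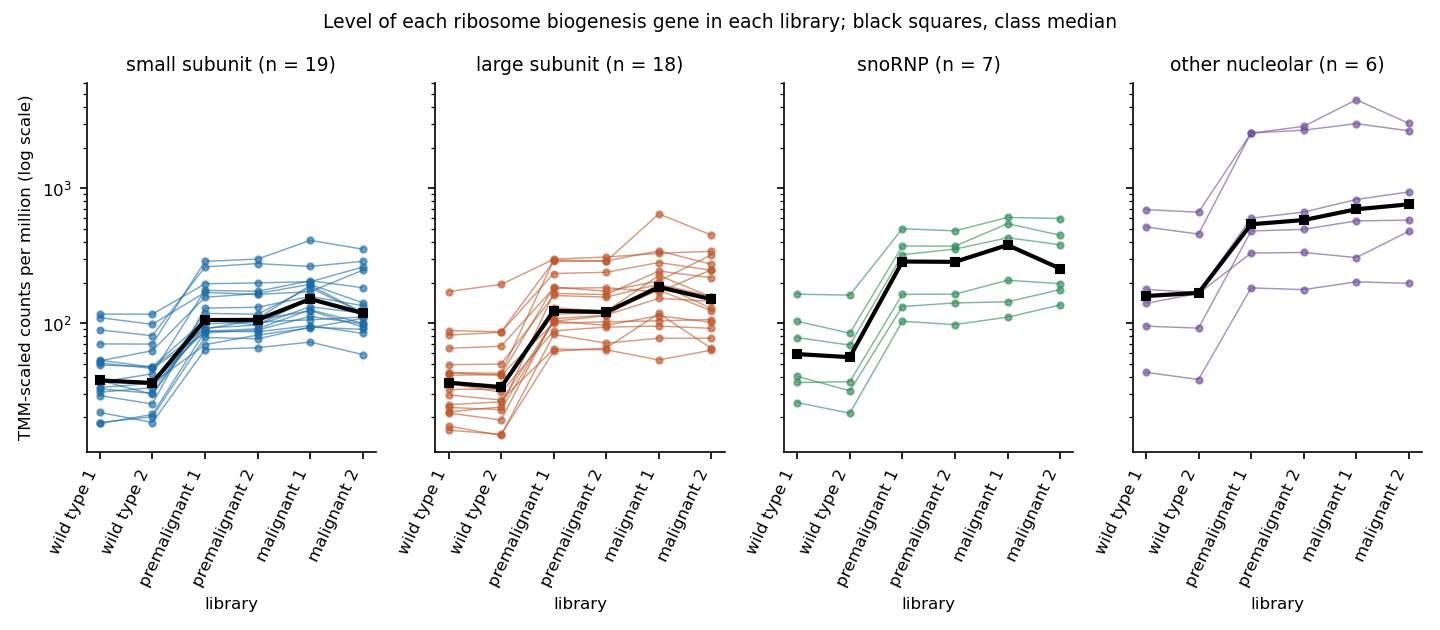
TMM-scaled CPM on a log axis in each of the 6 libraries, with 1 coloured line for each gene and black squares for the median of the class. In all 4 panels the step lies between wild type and premalignant, where the small-subunit median went from 37.6 and 35.9 to 105 and 106 CPM, and the lines spread most between the malignant libraries.

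The E-box CACGTG, which reads the same on both strands, was searched for from 500 bases before to 1500 bases after the annotated start of each gene on NCBIM37, the assembly also called mm9. It occurred there in 38 of the 50 genes, or 76.0%, compared with 31.2% of 13780 protein-coding genes tested. The sites lay mostly after the start. The 1500 bases after it held the motif in 72.0% of the 50 genes and in 21.7% of all, whereas the 500 bases before it held the motif in 14.0% and 12.5%. At least 2 copies were found in 32.0% of the 50 and in 7.13% of all genes. For comparison, GACGTC, another palindrome of the same base composition, occurred in the 2000 bases in 18.0% of the 50 and 19.2% of all genes. In the 1500 bases after the start it occurred in 6.0% and 12.4%. A single comparison motif cannot show what part base composition near the start has in these shares, which was not tested. In the narrower RefSeq promoters of GRCm38.p6, 250 bases before to 50 after the start, 8 of the 43 genes with an entry held the E-box, or 18.6%, against 8.09% of 27025 genes. By class, it was found near the start of 14 of 19 small-subunit, 13 of 18 large-subunit, 6 of 7 snoRNP and 5 of 6 other nucleolar genes. The 38 genes with the motif had a median log2 fold change of 1.97 in premalignant cells, and the 12 without it 1.57, a difference that was not tested. These 12 rose as well, between 0.68 and 2.45. Binding was not measured here, and a match of 6 letters is not in itself a bound site.

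The following windows of 30 bases on NCBIM37 show the motif, in capitals, in 8 genes on which the results turn. They are the genes of nucleolin and nucleophosmin, of Gnl3 and Rrp1b with the steepest rises, of 3 box C/D proteins and of Nop2. Each is written 5′ to 3′ on the strand of its gene. Copies in annotated exons were left out beforehand, and not every other copy is shown. The windows therefore cannot show where in a gene the motif usually lies. Those printed are intronic except those of Fbl and Nop2, which lie just upstream of the annotated start.
Ncl, chr1:88255190-88255219, minus strand: gcgtggtgactcCACGTGgtggggctggaa
Npm1, chr11:33062104-33062133, minus strand: gtactgatggccCACGTGgcttaatgttag
Gnl3, chr14:31831147-31831176, minus strand: gaacactacatgCACGTGgttggtctgctg
Gnl3, chr14:31831226-31831255, minus strand: gttgtcccagccCACGTGgcagctccatgc
Rrp1b, chr17:32174248-32174277, plus strand: agtctcagaaccCACGTGgcagctcaaccc
Rrp1b, chr17:32174315-32174344, plus strand: acatcgggcatgCACGTGgtgtgcatacat
Nop56, chr2:130100526-130100555, plus strand: accgcgtgttccCACGTGgccgaccgcacc
Nop58, chr1:59742215-59742244, plus strand: ggttcaggtgaaCACGTGgcttctccgaat
Fbl, chr7:28954742-28954771, plus strand: ggcgctcctttcCACGTGcgaaagcctgag
Nop2, chr6:125081829-125081858, plus strand: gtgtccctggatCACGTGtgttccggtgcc
Ncl held 5 copies in the 2000 bases, the most of the 50 genes, and Nat10 held 4. Gnl3, Npm1, Nop56, Tsr1 and Wdr43 held 3 each.

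**Figure D2:**
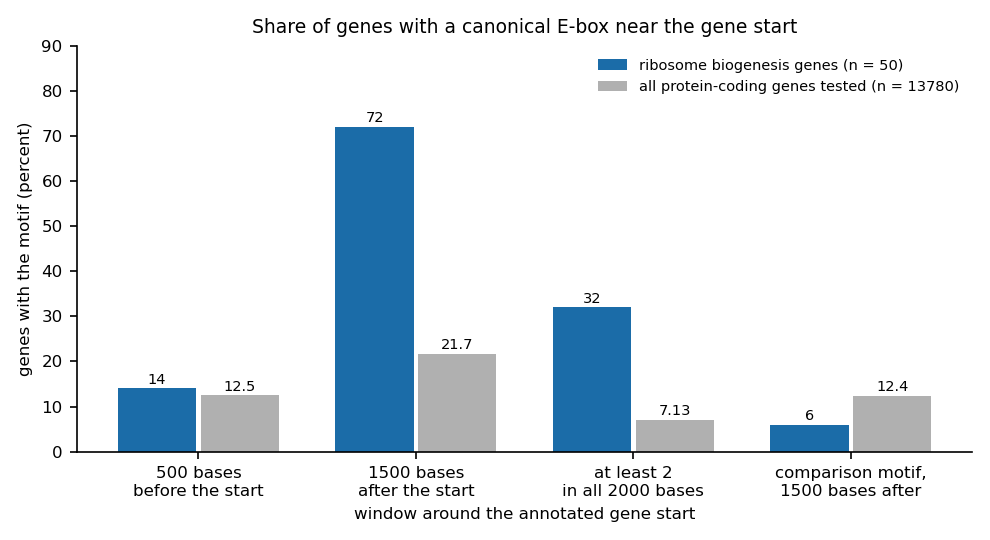
Share of genes, in percent, with the E-box in windows around the annotated gene start, for the 50 ribosome biogenesis genes (blue) and all 13780 protein-coding genes tested (grey), with the value over each bar. The bars differ most in the 1500 bases after the start, 72.0% against 21.7%, and are close before the start, 14.0% against 12.5%.

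Among the 6 other nucleolar proteins, Npm1 and Ncl gave the highest levels of all 50 genes. Npm1, nucleophosmin, is an abundant chaperone of the granular part of the nucleolus. It stood at 517 and 457 CPM in wild type, 2573 and 2700 in premalignant and 3017 and 2672 in malignant cells. The wild-type libraries were far below the other 4, and the premalignant and malignant libraries overlapped. Its log2 fold change in premalignant cells was 2.44 ± 0.17 (SE, n = 2 and 2; edgeR's quasi-likelihood test, adjusted p = 0.00147), the largest of this class. Ncl, nucleolin, which binds the precursor RNA early, was at 696 and 665 CPM, then 2566 and 2881, then 4538 and 3033. The malignant libraries were both above the premalignant ones, and malignant replicate 1 stood well above replicate 2.

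Nolc1, also called Nopp140, is a chaperone of snoRNPs that brings them to the nucleolus. It had 94.8 and 91.7 CPM in wild type, 482 and 496 in premalignant and 573 and 580 in malignant cells, and its log2 fold change in malignant cells, 2.63 ± 0.13 (edgeR, adjusted p = 0.000526), was the largest of the class. Tcof1, or treacle, which links ribosomal DNA transcription to modification of the precursor, changed least. It was at 140 and 166 CPM in wild type, 331 and 334 in premalignant and 306 and 480 in malignant cells. The stages did not overlap between wild type and either later stage, but 1 malignant library lay below and 1 above the premalignant pair. The log2 fold changes of Tcof1 were 1.12 ± 0.23 (edgeR, adjusted p = 0.0159) and 1.36 ± 0.23 (edgeR, adjusted p = 0.00569) against wild type, and the first missed the threshold without premalignant replicate 2. The helicase Ddx21 and the zinc-finger protein Lyar rose 3.65-fold and 4.42-fold in premalignant cells.

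The 7 snoRNP proteins formed the class with the narrowest range, 1.60 to 2.31 on the log2 scale in premalignant and 1.89 to 2.47 in malignant cells. Fbl, fibrillarin, is the methyltransferase of box C/D particles, and Nop56 and Nop58 are their scaffold. Fbl stood at 58.9 and 55.8 CPM in wild type, 286 and 285 in premalignant and 379 and 254 in malignant cells. It had the largest rise of the class in premalignant cells, 2.31 ± 0.21 (edgeR, adjusted p = 0.00211), and malignant replicate 2 was below both premalignant libraries. Of all windows of 50 bases in its exons, 84.9% also occur elsewhere in the genome, so its counts depend on how reads with several positions were treated. Nop56 had 164 and 161 CPM, then 502 and 483, then 608 and 597, and changed least of the class, by 1.60 ± 0.13 (edgeR, adjusted p = 0.00179). Its neighbour in the particle, Nop58, had 103 and 84.2 CPM, then 373 and 372, then 547 and 449. The stages did not overlap for either scaffold gene.

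Box H/ACA particles contain Dkc1, the pseudouridine synthase dyskerin, with Nhp2, Nop10 and Gar1. Dkc1 was at 78.0 and 68.6 CPM in wild type, 322 and 354 in premalignant and 430 and 381 in malignant cells. Nhp2 was at 36.2 and 36.7, then 163 and 164, then 208 and 196 CPM. Nop10 was at 40.3 and 31.4, then 133 and 141, then 144 and 177 CPM. Gar1 was at 25.7 and 21.4, then 103 and 97.5, then 111 and 136 CPM. For these 3 genes and Gar1 the 3 stages did not overlap and rose in the same order. Dkc1, Nhp2 and Nop10 had log2 fold changes of 2.20, 2.17 and 1.93 in premalignant cells, and Gar1 one of 2.09, so the 4 proteins of the particle differed by 0.27 at most. All 7 snoRNP genes were above the median rise of the small-subunit class, 1.58.

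The 19 small-subunit factors rose by a median of 1.58 in premalignant cells, from 0.68 to 2.27, below the median of 1.85 of the large-subunit class and of 2.09 of the snoRNP class. The differences between classes were not tested. The order of the 3 medians was the same in malignant cells, at 1.70, 2.08 and 2.41. Members of the small-subunit processome, the early particle around the nascent transcript, include Heatr1, Wdr43 and Wdr75 of its first subcomplex, Mphosph10, Imp3 and Imp4 of another, and Nol6, Rrp9, Nop14, Noc4l, Bms1, Emg1 and Nat10.

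Nat10, an RNA acetyltransferase, was at 36.4 and 42.0 CPM in wild type, 175 and 172 in premalignant and 206 and 183 in malignant cells. Rrp12, needed for export and maturation of the precursors, was at 18.0 and 21.0, then 86.6 and 90.8, then 126 and 99.7 CPM. Tsr1, which holds the late precursor of the small subunit, was at 28.9 and 25.1, then 129 and 131, then 158 and 135 CPM. In these 3 genes the 3 stages were apart in all libraries. They had the largest rises of the class in premalignant cells, 2.14 ± 0.14 for Nat10, 2.19 ± 0.17 for Rrp12 and 2.27 ± 0.15 for Tsr1 (edgeR, adjusted p = 0.00147, 0.00179 and 0.00147). Exons of Tsr1 overlap those of Srr on the opposite strand over 1240 bases, 32.3% of its exon length, and whether counting used strand is not given in the sources used here. In malignant cells Wdr43 joined the top of the class. It had 70.0 and 69.9 CPM in wild type, 287 and 298 in premalignant and 411 and 354 in malignant cells, and a log2 fold change of 2.45 ± 0.14 against wild type (edgeR, adjusted p = 0.00054).

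Emg1, a methyltransferase of the small-subunit RNA, and Bms1, a GTPase of the processome, changed least. Emg1 was at 110 and 97.9 CPM in wild type, 169 and 163 in premalignant and 171 and 247 in malignant cells. Its log2 fold changes were 0.68 ± 0.20 (edgeR, adjusted p = 0.0436) and 1.01 ± 0.20 (edgeR, adjusted p = 0.00888). The premalignant call of Emg1 rested on all libraries, since it was lost when any of the 4 wild-type and premalignant libraries was left out and with total-count scaling, where the value was 0.47. Bms1 was at 117 and 116 CPM in wild type, 196 and 199 in premalignant and 203 and 260 in malignant cells, with log2 fold changes of 0.76 ± 0.16 and 0.99 ± 0.16 (edgeR, adjusted p = 0.0157 and 0.00442). Its premalignant call was lost without either premalignant library. Ddx10 and Imp3 also rose less than 2-fold in premalignant cells, 1.96-fold and 1.79-fold, and the call of Ddx10 was lost without premalignant replicate 2. Emg1 was nevertheless the most abundant small-subunit transcript per kilobase at every stage, with 73.9, 118 and 149 CPM per kilobase of exon (RPKM) as stage means, and Rrp12 the least, with 4.51, 20.5 and 26.1 RPKM.

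Within the complexes of the small subunit, members did not rise equally. Among Mphosph10, Imp3 and Imp4, which form one complex, the premalignant rise ran from 0.84 to 1.58, and the RPKM of the most abundant exceeded that of the least abundant 5.52-fold and 6.40-fold in wild type and 3.51-fold and 3.57-fold in premalignant libraries. The cytoplasmic or late factors Tsr1, Ltv1, Pno1 and Nob1, of which Nob1 is the nuclease of the last cut and Pno1 its partner, differed 2.50-fold and 3.09-fold in wild type and 1.29-fold and 1.66-fold in premalignant libraries. Heatr1, Wdr43 and Wdr75 moved the other way, from 2.51-fold and 2.73-fold in wild type to 3.33-fold and 3.50-fold in premalignant libraries. Noc4l and Nop14, which bind each other, stayed within 1.30-fold of each other in every library.

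Between the lower and upper quartile, the large-subunit values ran from 1.47 to 2.19 in premalignant cells, and the small-subunit values from 1.14 to 1.85. The 18 large-subunit factors had the widest range of the classes, from 0.73 to 2.84. They include the PeBoW proteins Pes1, Bop1 and Wdr12, the helicases Ddx18 and Ddx56, the RNA methyltransferases Nop2 and Ftsj3, and the assembly factors Ebna1bp2, Grwd1, Mrto4, Nip7, Noc3l, Rrp15 and Rrs1. Rrp1b and Rrp1, paralogous proteins of the precursor of the large subunit, stood at opposite ends. Rrp1b was at 21.9 and 23.9 CPM in wild type, 166 and 163 in premalignant and 243 and 217 in malignant cells, so all stages were apart. Rrp1 was at 172 and 193 CPM, then 298 and 309, then 329 and 341. Rrp1b rose by 2.84 ± 0.14 in premalignant and 3.33 ± 0.14 in malignant cells (edgeR, adjusted p = 0.00132 and 0.000437), and Rrp1 by 0.73 ± 0.13 and 0.88 ± 0.13 (edgeR, adjusted p = 0.0104 and 0.00373). The premalignant call of Rrp1 was lost without premalignant replicate 2. In RPKM, Rrp1 exceeded Rrp1b 30.0-fold and 31.1-fold in the wild-type libraries, 6.88-fold and 7.29-fold in the premalignant and 5.20-fold and 6.02-fold in the malignant libraries.

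Gnl3, nucleostemin, is a GTP-binding protein of the nucleolus of dividing cells. It stood at 42.9 and 42.4 CPM in wild type, 293 and 288 in premalignant and 645 and 450 in malignant cells. The 3 stages were far apart in every library, and the step to malignancy was the largest of the 50 genes. Gnl3 rose by 2.77 ± 0.20 in premalignant and by 3.68 ± 0.21 in malignant cells, a 12.8-fold difference from wild type (edgeR, adjusted p = 0.00159 and 0.00054). Nop16 had 21.5 and 19.1 CPM, then 108 and 115, then 153 and 145, and rose by 2.45 ± 0.14 and 2.87 ± 0.14 (edgeR, adjusted p = 0.00141 and 0.000526). Noc3l, a factor shared by large-subunit assembly and DNA replication, was at 29.3 and 26.9 CPM in wild type, 64.0 and 63.3 in premalignant and 53.2 and 63.0 in malignant cells. Its log2 fold changes were 1.18 ± 0.15 and 1.05 ± 0.15 (edgeR, adjusted p = 0.00408 and 0.00329). It was the 1 gene of the 50 with a lower level in both malignant than in both premalignant libraries, against 4206 of the 16683 genes tested. The gap was small, with malignant replicate 2 at 62.98 and premalignant replicate 2 at 63.33 CPM. In the PeBoW complex the rise ran from 1.46 in Bop1 to 2.22 in Wdr12, and Wdr12 was the least abundant of the 3 in wild type at 4.77 RPKM, against 26.5 for Bop1 and 27.6 for Pes1.

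**Figure D3:**
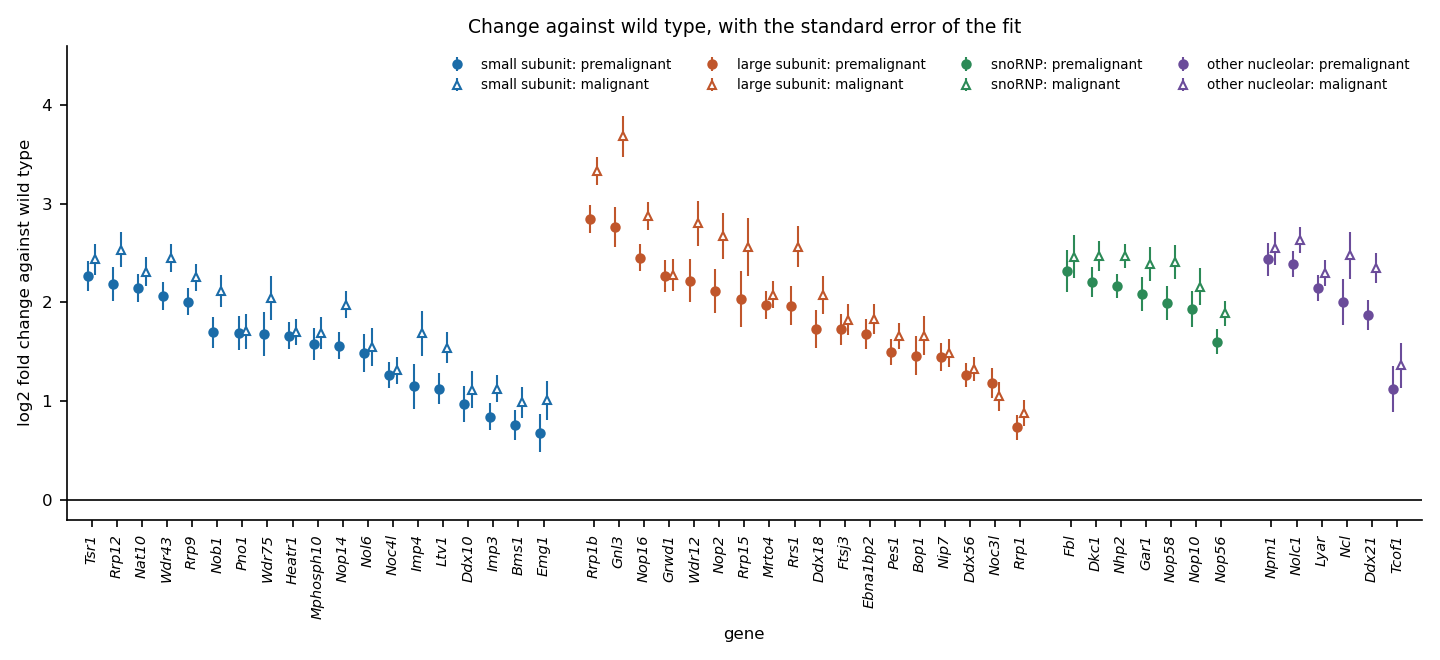
Log2 fold change against wild type of each of the 50 genes in premalignant (filled circles) and malignant cells (open triangles), with bars of 1 standard error of the edgeR fit, grouped by class and ordered by the premalignant value. All points are above 0, from 0.68 for Emg1 to 3.68 for Gnl3, and the triangle lies below the circle for Noc3l.

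Ranked by RPKM among the 50, Npm1 was first at every stage, with stage means of 183, 989 and 1067 RPKM. Ncl had rank 3 in wild type and rank 2 afterwards. By stage means of CPM, Ncl stood above Npm1, at 680 against 487, 2724 against 2636 and 3785 against 2844. Ranks by RPKM thus depend on the exon length used, which is that of all annotated exons of a gene merged. Gnl3 moved from rank 17 to rank 4 and then 3, with 22.7, 154 and 291 RPKM, and Nop16 from 35 to 22, whereas Bms1 went from 14 to 28, Ddx10 from 27 to 41 and Rrp1 from 2 to 8. The malignant stage means of Gnl3 and of Fbl, its neighbour in that order at 273 RPKM, differ less than the malignant libraries of either gene. The median RPKM over the 50 genes was 15.7 and 15.8 in wild type, 46.3 and 47.2 in premalignant and 65.3 and 61.1 in malignant libraries.

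From the premalignant to the malignant stage only Gnl3 was called higher and none lower, or 1 and 0 of 50, against 3.73% and 2.45% of all genes tested. The median log2 fold change of the 50 genes was 0.24, and 49 values lay above 0, while the median of all genes was 0.04 and 66.3% of all genes lay below the median of the 50. At an unadjusted p under 0.05, 14 of the 50 were higher and 0 lower, against 10.5% and 9.34% of all genes. DESeq2 called 2 of the 50, Gnl3 and Rrs1, higher and 0 lower, against 6.85% and 5.82% of all genes. Both malignant libraries were above both premalignant ones for 34 of the 50 genes, compared with 25.9% of all genes. By class the medians were 0.24 for the small subunit, 0.18 for the large subunit and 0.29 for the snoRNPs. With total-count or upper-quartile scaling 42 of the 50 stayed above 0. These scalings also changed the split of all calls, from 623 higher and 408 lower to 466 and 455 and to 487 and 492. Over the 50 genes, the premalignant change amounted to a median of 87.1% of the malignant change on the log2 scale, between 67.1% for Emg1 and 113% for Noc3l.

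The rise of Gnl3 was 0.91 ± 0.19 (edgeR, adjusted p = 0.0684; DESeq2, adjusted p = 0.000258). The edgeR call was lost in a fit of the 2 stages alone (edgeR, adjusted p = 0.156), where 258 of all genes were called in place of 1031. It was also lost when any wild-type or premalignant library was left out. Those fits likewise called far fewer genes in all, or none, so the lost calls are not particular to Gnl3. Its log2 fold change in these fits stayed between 0.90 and 0.93. Noc3l had the lowest value, −0.13 ± 0.15 (edgeR, adjusted p = 0.694). The smallest adjusted p after that of Gnl3 was 0.117, for Rrp1b at 0.49 ± 0.13. An exact permutation test of 2 against 2 libraries cannot go below 0.333 for any gene, two-sided.

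**Figure D4:**
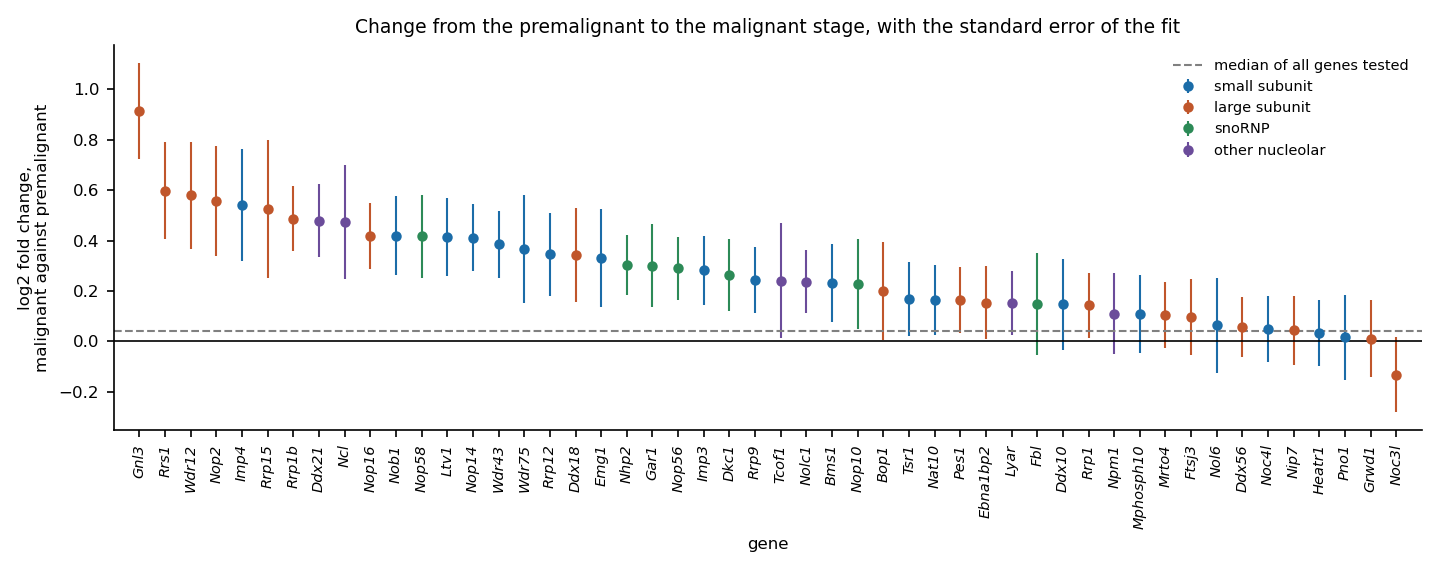
Log2 fold change of malignant against premalignant cells for each of the 50 genes, coloured by class, with bars of 1 standard error of the edgeR fit and a dashed line at the median of all genes tested, 0.04. Gnl3 lies highest at 0.91, and Noc3l is the 1 gene below 0.

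The malignant libraries differed from each other in the biogenesis genes much more than replicates of the other stages did. The standard deviation over the 50 genes of the log2 ratio of replicate 1 to replicate 2 was 0.347 in malignant, 0.0854 in premalignant and 0.149 in wild-type cells. This ratio followed the chromosome of the gene, a pattern that was looked at after the values were seen. All 8 of the genes on chromosome 1, namely Ddx18, Imp4, Ncl, Nop58, Rrp15, Rrs1, Wdr12 and Wdr75, were higher in malignant replicate 1, with log2 ratios from 0.29 for Nop58 to 0.86 for Rrp15, and the 733 other genes of that chromosome with at least 1 CPM had a median of 0.55. All 9 genes on chromosomes 3, 6, 10, 15 and 18 were lower in malignant replicate 1, from −0.05 for Rrp1 to −0.65 for Nop2 and Tcof1. The medians of the other genes of these chromosomes lay between −0.35 and −0.41. Chromosomes 12 and 16, which carry none of the 50, had medians of −0.39. On the remaining chromosomes the medians were between 0.04 and 0.14, and in the other stages no chromosome had a median beyond 0.12 in size. With the median of its chromosome subtracted, the standard deviation over the 50 genes was 0.200. DNA copy number was not measured here, and its part in these ratios was not tested.

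**Figure D5:**
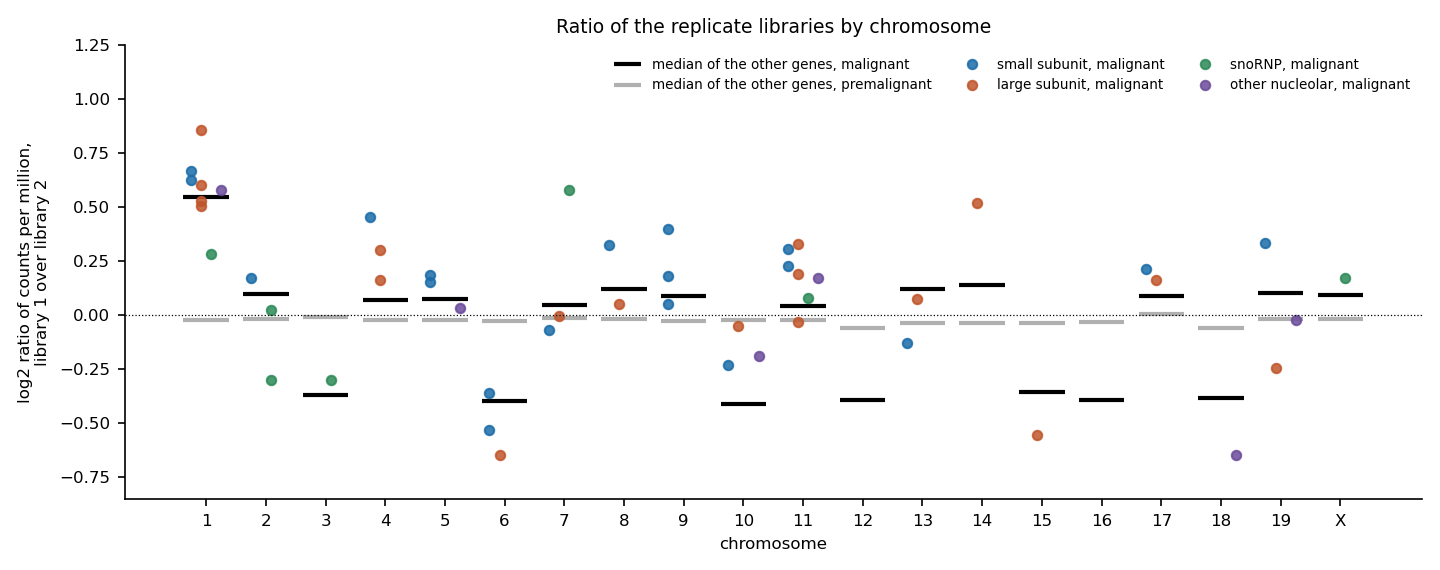
Log2 ratio of library 1 to library 2 by chromosome, with black bars for the median of the other genes in malignant cells, grey bars for the same in premalignant cells and points for the biogenesis genes in malignant cells, coloured by class. The 8 points on chromosome 1 lie between 0.29 and 0.86, around the black bar at 0.55, and the grey bars stay near 0.

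The calls between the malignant and premalignant stages moved with the library used. Without malignant replicate 2, 11 of the 50 were called higher, 8 of them being all the genes on chromosome 1, together with Gnl3, Nob1 and Rrp1b, while 9.94% of all genes were called higher in that fit. Without malignant replicate 1, 6 were called higher, of which Ddx21, Emg1, Ltv1, Nop2 and Tcof1 lie on chromosomes 6, 10 and 18, and the other was Gnl3, while 9.16% of all genes were called higher. Gnl3 lies on chromosome 14, whose other genes were above the premalignant mean by 0.53 in malignant replicate 1 and 0.31 in replicate 2. In a fit with the chromosome medians of the malignant libraries removed, the value of Gnl3 was 0.48 (edgeR, adjusted p = 0.125) and it was not called, while Rrp1b, at 0.58, was (edgeR, adjusted p = 0.0458). It was the 1 gene of the 50 called higher there, against 3.62% of all genes, and the median of the 50 was 0.22. Against wild type, the same fit called all 50 and 24.4% of all genes higher, with a median of 2.14 for the 50.

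A further 111 ribosome biogenesis factors, chosen from knowledge of the pathway and with these results known, gave a similar picture at a smaller size. Of these, 96 were called higher and 0 lower in premalignant and 97 higher and 0 lower in malignant cells. Of all genes, 19% and 24.9% were called higher and 20.3% and 24.3% lower. DESeq2 called 96 and 98 of the 111 higher and 0 lower. With upper-quartile scaling 90 and 87 were called higher, and with total counts 83 and 79. At a log2 fold change of at least 1 these were 64 and 72, and without a minimum fold change 98 and 101. In these settings too, 0 were called lower. The medians of the 111 were 1.09 and 1.22, compared with 1.80 and 2.10 for the 50. The largest rises were those of Rcl1, a cyclase-like endonuclease of the small-subunit pathway, and Mybbp1a, a nucleolar partner of MYB. Rcl1 was at 17.4 and 18.7 CPM in wild type, 112 and 120 in premalignant and 190 and 153 in malignant cells. Mybbp1a was at 131 and 147, then 800 and 857, then 1023 and 1050 CPM. The exosome, which trims precursors from their 3′ end, and its cofactors had 13 of 13 genes called higher in premalignant and 12 of 13 in malignant cells.

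Among these 111, values near 0 were found for Ddx54, a helicase, at 0.02 and 0.01 against wild type, for Nop53 at 0.16 in premalignant and for Rrp36 at −0.06 in malignant cells (edgeR, adjusted p = 0.925, 0.967, 0.633 and 0.771). Ddx54 was at 221 and 277 CPM in wild type, 249 and 256 in premalignant and 263 and 238 in malignant cells, and these overlap. Between the malignant and premalignant stages 1 of the 111, the snoRNP assembly factor Nufip1, was called higher at 0.71 ± 0.15 (edgeR, adjusted p = 0.0757). None was called lower, while 3.73% of all genes were called higher and 2.45% lower. DESeq2 called 5 of the 111 higher and 0 lower, against 6.85% and 5.82% of all genes. Rpf2 had the next value, 0.63, and was not called, and the lowest were −0.33 for Pih1d1 and −0.32 for Rrp36.

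Of the 50 genes, 7 contain annotated snoRNA genes within their span, or 14.0%, compared with 2.73% of 13792 protein-coding genes tested. They are Nop56, Nop58, Ncl, Dkc1, Gnl3, Wdr43 and Tsr1, with between 1 and 4 snoRNA entries each. Nop56 and Nop58, which bind box C/D snoRNAs, thus carry such genes within their own span, where introns and exons were not told apart. Apart from Fbl, at least 5% of the 50-base windows in exons also occur elsewhere in the genome for Ddx18 at 63.3%, Npm1 at 28.3%, Pes1 at 24.0%, Nop56 at 18.6%, Rrs1 at 13.0%, Imp3 at 12.1%, Mrto4 at 11.9%, Nip7 at 9.55% and Nop10 at 5.44%. The levels of these genes are therefore less certain. The other 40 genes had a median log2 fold change of 1.80 in premalignant and 2.18 in malignant cells, and all 40 were called higher in both.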

How the data were processed

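RNA-seq libraries were prepared from polyadenylated RNA and sequenced as 50-bp single-end reads, 2 libraries for each of 3 stages. Per the labels and methods, the authors demultiplexed with CASAVA 1.8.2, aligned to mm9 and deposited raw counts per Ensembl gene from HTSeq. The aligner named in the study's methods is TopHat, at default settings. The HTSeq options and the annotation release are not given in the sources used here. The authors' DEseq tables of means, fold changes and p-values were not used. Symbols, coordinates and exon lengths come from GENCODE vM1 on NCBIM37, the same build, which may differ from the authors' annotation.

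Counts of all 6 libraries entered 1 fit of edgeR 4.0.16 (R 4.3.3) with TMM scaling, the default filter on low counts and Benjamini-Hochberg adjustment over all genes tested, and calls used the study's thresholds. The SE comes from the log2 fold change and its F statistic. DESeq2 1.42.0, other scalings, filters and thresholds, a replicate block, fits of 2 stages and leaving out each library were alternatives, and removing chromosome medians, chromosome 1 or repeated genes was added after seeing the data. CPM is TMM-scaled and RPKM also divides by exon length. This is the merged length of all annotated exons of a gene, used or not in these cells, so RPKM ratios between genes depend on it. No spike-in was used here, so a change in total RNA per cell would not be seen.

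The genes and lists were chosen with earlier results of these data known. Genes named with a test are, for each comparison with wild type, the 3 with the largest and 2 with the smallest change of a class (1 and 1 among the other nucleolar genes), any gene called between malignant and premalignant cells and the extremes there, the most and least abundant of each class and the 2 extremes of the further factors. Other genes are named by value or as members of a complex. Of the marker lists, 12 of 13 pre-B and 4 of 5 mature B genes were counted. The mature B genes summed to 96.6 and 182 CPM in wild type, 181 and 233 in premalignant and 31.0 and 79.0 in malignant cells. Nearly all of this was Ms4a1, at 93.4 and 175, then 180 and 232, then 30.0 and 78.3 CPM. Fcer2a and Cr2 were instead highest in wild type, at 1.61 and 4.33 and at 1.44 and 1.81 CPM. Ccr6 was very low in every library. E-boxes were searched in the NCBIM37 sequence and in RefSeq promoters, which had an entry for 43 of the 50 genes.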

Additional observations from a re-analysis of the deposited data

How the results depend on the processing

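In every alternative fit that kept the 50 genes, all 50 stayed above 0 in both comparisons with wild type, and at least 45 were called higher. With the 8 genes on chromosome 1 left out all 42 others were called higher, and with the genes of repeated sequence left out all 40. The premalignant median of 1.80 was 1.59 with total counts, and 1.74 to 1.87 when 1 library was left out. The malignant median of 2.10 was 1.93 with upper-quartile scaling, 1.80 with total counts and 1.98 to 2.26 when 1 library was left out. Of all genes, 6563 were called between premalignant and wild type, 4282 at a log2 fold change of at least 1, and 2094 to 8455 without 1 library, lowest without premalignant replicate 2. The genes called among the 50 numbered 45 to 50 in these fits.

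Between malignant and premalignant cells the counts depended most on the setting. All calls numbered 1031, with DESeq2 2113, without a filter on low counts 2810, in a fit of the 2 stages 258, at an FDR of 0.05 407, and without 1 library 0 to 3805. Of the 50, 1 was called higher, with DESeq2 2, without the filter 5, and 0 in the fit of 2 stages, at an FDR of 0.05 or at a log2 fold change of at least 1, and 0 to 11 without 1 library. Of the 111 further factors, 1 was called higher, with DESeq2 5, without the filter 6, and 0 in the same 3 settings, and 0 to 14 without 1 library, where 0 to 1 were lower. The cause was not tested. With 1 malignant library left out, the lone library is assumed to vary like the other groups.

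With the replicate number as a block, the counts of the 50 and of the 111 were as without it, and the medians were 1.80, 2.09 and 0.24. Deviations of same-numbered libraries correlated at 0.371 between wild type and premalignant, −0.0131 between wild type and malignant and −0.0125 between premalignant and malignant, and the labels do not tie a number to a litter or day. Since the correlation was not above 0.1 in every pair of stages, the numbers were not taken as pairs. Replicate 1 had 51065861, 53453055 and 52996457 counts and replicate 2 31283803, 34543633 and 30031100 in stage order, so depth moved with the number, and what wild-type and premalignant libraries of a number share was not tested. Without the 8 genes on chromosome 1 the medians were 1.71, 2.03 and 0.22.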
